A study of Mus musculus with 24 samples.

Results

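The 16 libraries described here lay at the 2 ends of the first principal component (PC1) of log2 CPM (counts of a gene per 1000000 counts of its library) among 24 libraries of activated mouse T cells. The 24 h end held 8 libraries and the 72 h end held 8, and the remaining 8 libraries lay between them. The libraries were chosen by PC1, a readout of these expression values. Differences between 8 and 8 are therefore given as a description with no test. Tests of time were made on all 24 libraries by their labels, 12 at 24 h against 12 at 72 h, whichever end a library lay at.

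OT-1 mice have a transgene for a T cell receptor that recognises a peptide of ovalbumin (OVA) on CD8 T cells. Their splenocytes received this peptide at 2 µg/mL, alone or with a Toll-like receptor (TLR) agonist added 1 h earlier, and T cells were then isolated by immunomagnetic negative selection. All groups thus share the OT-1 receptor transgene and the peptide. The groups differ by agent (OVA alone, TLR2 agonist or TLR7 agonist) and by time (24 h or 72 h), with 4 libraries in each of the 6. The labels do not name the agonist in each library. The protocol lists a TLR2 agonist, Pam3CSK4, at 300 ng/mL. It lists a pair of TLR7 agonists, R848 at 10 µg/mL and gardiquimod at 3 µg/mL. No unstimulated library was analysed here, so the earliest point is 24 h after activation. No age is given, and nothing states if the replicates of a group are different animals or different wells, so the p-values reflect only how these libraries differ from each other, and that spread may be technical.

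A CD8 T cell that meets its antigen first enlarges: it makes ribosomes, enters the cell cycle and secretes cytokines such as interleukin 2. It then divides repeatedly and takes on effector functions, among them killing by perforin and granzymes, while its receptors for cytokines and for homing change. Supply of sugar, oxygen and amino acids in the culture shapes this programme through the hypoxia-inducible factors and through ATF4, the transcription factor of the integrated stress response.

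The 24 h end held TLR2 24 h replicates 1 to 4, OVA 24 h replicates 2 and 4, and TLR7 24 h replicates 1 and 2. The 72 h end held TLR7 72 h replicates 1 to 4, OVA 72 h replicates 1 to 3, and TLR2 72 h replicate 2. The agents were thus unevenly spread: TLR2 gave 4 libraries to the 24 h end and 1 to the 72 h end, TLR7 gave 2 and 4, and OVA gave 2 and 3. PC1 held 60.2% of the variance and PC2 8.13%. PC1 scores ran from 85.2 to 99.1 at the 24 h end, from -20.5 to -1.2 between, and from -90.5 to -56.5 at the 72 h end. The innermost libraries of the ends were TLR2 24 h replicate 3 at 85.2 and OVA 72 h replicate 3 at -56.5, and the nearest libraries outside were OVA 72 h replicate 4 at -1.2 and OVA 24 h replicate 1 at -20.5. The libraries between went against the order of their labels on PC1: the 4 labelled 24 h scored -20.5 to -12.5, and the 4 labelled 72 h scored -13.1 to -1.2.

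**Figure D1:**
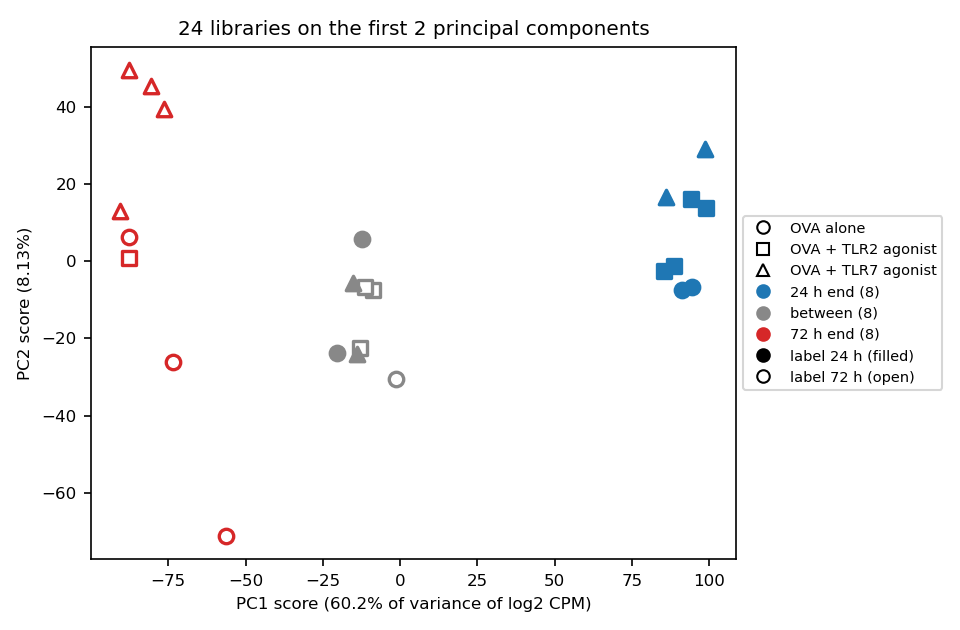
Scores of the 24 libraries on PC1 (horizontal, 60.2% of the variance of log2 CPM) and PC2 (vertical, 8.13%), with the agent as marker shape, the place on PC1 as colour, and the time label as filled (24 h) or open (72 h). The 8 blue libraries score 85.2 to 99.1 and the 8 red ones -90.5 to -56.5, with OVA 72 h replicate 3 lowest on PC2 at -71.1.

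Totals were 10900000 to 25500000 counts per library at the 24 h end, 10500000 to 25900000 at the 72 h end and 22700000 to 27100000 between. All 5 libraries under 12000000 counts were at the ends, 3 at the 24 h end and 2 at the 72 h end. The share of counts in genes of ribosomal proteins was 7.8% to 11.1% at the 24 h end, 11.1% to 12.8% between and 13% to 16.4% at the 72 h end. The 100 most abundant genes of each library held 22.8% to 25.6% of its counts at the 24 h end and 26.3% to 29.7% at the 72 h end, and mitochondrial genes 1.54% to 2.58% and 1.99% to 3.46%.

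OVA 72 h replicate 3 stood apart from the other 7 libraries of the 72 h end. In it 821 genes lay more than 2-fold above the highest of the other 7, whereas each of those 7 had 0 to 42 such genes. They included Klf2, a transcription factor of quiescent T cells, at 343 CPM against at most 16.3 CPM in the others, and S1pr1, the receptor for exit from lymphoid tissue, at 564 CPM against at most 61.7 CPM. They also included genes of other cells: Igha, an immunoglobulin heavy chain, at 133 CPM against at most 0.661 CPM, and Lyz2, the lysozyme of macrophages and neutrophils, at 26.4 CPM against at most 0.33 CPM. Values that turn on this library are given with and without it below.

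The test of time over all 24 libraries called 9855 of 14560 genes at an adjusted p under 0.05. Of all genes tested, 35.3% were higher at 72 h (5140 genes) and 32.4% were lower (4715 genes), so a gene list with shares near these is at the background. Among the 16 libraries, 21.2% of genes lay in all 8 libraries of the 72 h end above all 8 of the 24 h end (3082 genes), and 19% lay below (2762 genes). With a difference of at least 2-fold as well, these shares were 17.2% (2503 genes) and 12.4% (1802 genes). Separation of the ends follows from how the libraries were chosen. Of the 9855 called genes, 5836 did not overlap between the ends, and 9499 had 1 sign in all 3 agents when the 16 libraries were compared within agents. The call by the mean over the agents and the choice of the 16 both favour a shared sign. Log2 fold changes by label include the 8 libraries between, and are mostly smaller than the 8 against 8 differences. The costimulatory receptors are an exception, with a median of 0.42 by label and 0.36 between the ends. Without OVA 72 h replicate 3 their median by label was 0.19.

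The promoters of 6 called genes of the cell cycle, amino acid and hypoxia lists are shown here, each from 150 bases before to 30 bases after the start in RefSeq (GRCm38.p6), 5′ to 3′, with the motif in capitals. They were chosen among called genes that hold their list's motif in this window, so its presence in them is not a result. Ccnb2 and Cenpa belong to the mitotic list and hold the cell cycle genes homology region (CHR), TTTGAA. Orc1 and Mcm5 belong to the replication list and hold an E2F motif, searched as TTTCGCGC or TTTGGCGC. Nupr1 holds the amino acid response motif of ATF4 targets (CARE), searched as TGATGNAAT, and P4ha2 the core of the hypoxia response element, ACGTG. All were searched on both strands, and Orc1, Mcm5 and Nupr1 show the reverse complement.
Ccnb2 (cyclin B2), chr9:70421525-70421704, minus strand: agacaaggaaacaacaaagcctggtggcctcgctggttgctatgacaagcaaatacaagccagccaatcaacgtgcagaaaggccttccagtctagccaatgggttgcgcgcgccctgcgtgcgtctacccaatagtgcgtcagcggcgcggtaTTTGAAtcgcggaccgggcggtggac
Cenpa (centromere histone), chr5:30666736-30666915, plus strand: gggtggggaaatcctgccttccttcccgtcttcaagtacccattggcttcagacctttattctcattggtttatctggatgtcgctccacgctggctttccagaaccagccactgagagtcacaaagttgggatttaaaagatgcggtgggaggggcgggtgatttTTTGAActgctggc
Orc1 (origin recognition), chr4:108579304-108579483, plus strand: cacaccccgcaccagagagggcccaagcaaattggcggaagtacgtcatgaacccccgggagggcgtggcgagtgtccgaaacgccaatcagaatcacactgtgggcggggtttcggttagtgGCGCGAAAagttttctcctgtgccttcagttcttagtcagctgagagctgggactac
Mcm5 (replicative helicase), chr8:75109359-75109538, plus strand: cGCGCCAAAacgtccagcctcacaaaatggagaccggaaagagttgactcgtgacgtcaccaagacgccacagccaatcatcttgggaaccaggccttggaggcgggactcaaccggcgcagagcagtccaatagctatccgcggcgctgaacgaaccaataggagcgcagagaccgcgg
Nupr1 (stress-induced nuclear protein), chr7:126625441-126625620, minus strand: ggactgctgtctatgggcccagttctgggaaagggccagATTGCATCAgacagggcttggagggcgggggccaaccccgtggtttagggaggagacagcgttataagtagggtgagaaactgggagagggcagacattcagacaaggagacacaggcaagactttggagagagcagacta
P4ha2 (collagen prolyl hydroxylase), chr11:54100774-54100953, plus strand: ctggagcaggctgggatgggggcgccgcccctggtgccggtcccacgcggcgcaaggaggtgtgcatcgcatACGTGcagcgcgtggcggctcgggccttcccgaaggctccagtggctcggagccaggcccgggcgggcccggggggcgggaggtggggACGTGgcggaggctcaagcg

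Over the full windows of 300 bases, CHR was present in 34 of the 48 mitotic genes with a window (70.8%) and in 18.1% of 27025 promoters in all. In the replication list CHR was present in 7 of 41 (17.1%), and the E2F motif in 10 of 41 (24.4%) against 0.833% of all promoters. Of the 34 mitotic genes with CHR, 27 rose with time and 0 fell, and of the 10 replication genes with the E2F motif, 9 fell and 1 rose. The whole lists moved the same way. Of 59 tested mitotic genes 41 rose and 2 fell, and of 50 tested replication genes 43 fell and 2 rose. The CARE letters were present in 3 of 26 genes of the ATF4 list (0.969% of all promoters), and ACGTG in 12 of 20 genes of the hypoxia list (19.7% of all promoters), of which 11 rose and 0 fell. In the whole hypoxia list 18 of 24 tested genes rose and 3 fell. These counts describe letters in a window and are not evidence of binding. Whether the direction of change differs with the motif was not tested.

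Genes of ribosome assembly fell more uniformly than any other list. All 40 genes of the ribosome biogenesis list were tested, 40 were lower at 72 h and 0 were higher. The list's median log2 fold change was -1.18 where the median of all genes was 0.04. Between the ends the median difference was -1.88, and 38 of the 40 did not overlap. The list's median log2 CPM stood at 7.98 to 8.26 in the 24 h end libraries, 7.48 to 7.57 in the libraries between and 5.76 to 6.50 in the 72 h end libraries. Of the 36 lists its genes varied least within the 24 h end, with a median SD of 0.176 on the log2 scale against 0.32 for all genes.

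Ncl encodes nucleolin, the main nucleolar protein of growing cells (chromosome 1, 86344719 to 86359400, GRCm38). It stood at 6000, 6970 and 8870 CPM (lowest, median and highest) at the 24 h end and at 1110, 1570 and 1660 CPM at the 72 h end. Every library of the 72 h end lay below every one of the 24 h end, and the libraries between lay in the gap, at 3280 to 4610 CPM. By label the log2 fold change was -1.39 (SE 0.22, edgeR adjusted p = 7.62e-05). Heatr1, needed for transcription of ribosomal DNA, stood at 400 to 631 CPM against 55.2 to 88.5 CPM, and Utp20, a factor of small subunit processing, at 298 to 478 CPM against 27.1 to 57.1 CPM. Npm1, the nucleolar chaperone nucleophosmin, fell less, by 0.87 on the log2 scale (adjusted p = 1.13e-04). Srm, spermidine synthase and a target of Myc, fell by 1.68 (adjusted p = 1.28e-04). Myc itself, the transcription factor that drives these genes, did not pass: it stood at 325, 421 and 681 CPM at the 24 h end and 159, 387 and 490 CPM at the 72 h end, with overlap (log2 fold change -0.21, adjusted p = 0.134). Without OVA 72 h replicate 1 that value was -0.31 (adjusted p = 0.0229).

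Genes of the ribosomal proteins themselves moved the other way. Of 86 tested, a list chosen after the values were seen, 64 were higher at 72 h, 2 were lower and 20 were not called, with a median log2 fold change of 0.37. Between the ends the median difference was 0.57, and 32 of them did not overlap with the 72 h end higher. The factors that build ribosomes and the proteins of the finished ribosome were thus called in opposite directions.

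The cell cycle lists split in the same samples. Of 50 tested genes of DNA replication and G1/S, 43 fell and 2 rose (median -0.70, and -1.17 between the ends). Of 59 tested genes of mitosis and G2/M, 41 rose and 2 fell (median 0.67, and 1.09 between the ends). Mcm4, a subunit of the replicative helicase (chromosome 16, 15623897 to 15637400), stood at 615, 752 and 875 CPM at the 24 h end and 95.6, 153 and 197 CPM at the 72 h end (log2 fold change -1.37, SE 0.24, adjusted p = 1.03e-04). All 8 libraries of the 24 h end lay above all 8 of the 72 h end. Orc1, of the origin recognition complex, fell by 1.51 (adjusted p = 1.89e-04), Cdc6, which loads the helicase, by 1.25 (adjusted p = 9.82e-04), and Ung, uracil-DNA glycosylase, by 1.91 (adjusted p = 1.26e-04). The 2 G1/S genes that rose were Tk1, thymidine kinase (0.65), and E2f2, a transcription factor of that phase (1.14).

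Ccnb2, a cyclin that partners Cdk1 at mitotic entry (chromosome 9, 70407692 to 70421547), stood at 1.01, 2.76 and 4.31 CPM at the 24 h end and at 42.8, 54.7 and 79.5 CPM at the 72 h end. The 2 ends were far apart, and the libraries between stood at 21.1 to 48.3 CPM. By label it rose by 2.27 on the log2 scale (SE 0.48, adjusted p = 4.04e-04). Cenpa rose by 2.11, Ube2c, the ubiquitin-conjugating enzyme of mitotic exit, by 1.90, and Nusap1, a spindle protein, by 1.78. Mki67, the proliferation marker Ki-67, stood at 45.6, 176 and 299 CPM against 391, 479 and 961 CPM (1.08, adjusted p = 0.00226). Cdk1, the kinase itself, did not pass, at 37.9 to 161 CPM against 56.8 to 125 CPM (-0.04, adjusted p = 0.843). The split was thus not shared by every cell cycle gene: 16 of the 59 mitotic genes were not called.

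Within the 24 h end the mitotic list varied by agent more than the others described so far. Its median log2 CPM was 3.67 and 3.55 in TLR7 24 h replicates 2 and 1, and 4.72 to 5.52 in the 6 OVA and TLR2 libraries. At the 72 h end it was 5.58 to 6.53. The median SD of its genes was 0.696 within the 24 h end and 0.356 within the 72 h end. The median time difference of its genes by label was 1.36 with TLR7, 0.75 with OVA and 0.00 with TLR2, whereas the G1/S list fell most with TLR2 (-1.25) and least with TLR7 (-0.27). No test was made of these differences between agents for a list. Of the 4 TLR2 libraries labelled 72 h, 3 lay between the ends. Within the ends alone the mitotic values were 2.09 with TLR7, 0.97 with OVA and 0.26 with TLR2, whose 72 h end is 1 library. The G1/S values were -0.50, -1.36 and -1.92 in the same order.

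**Figure D2:**
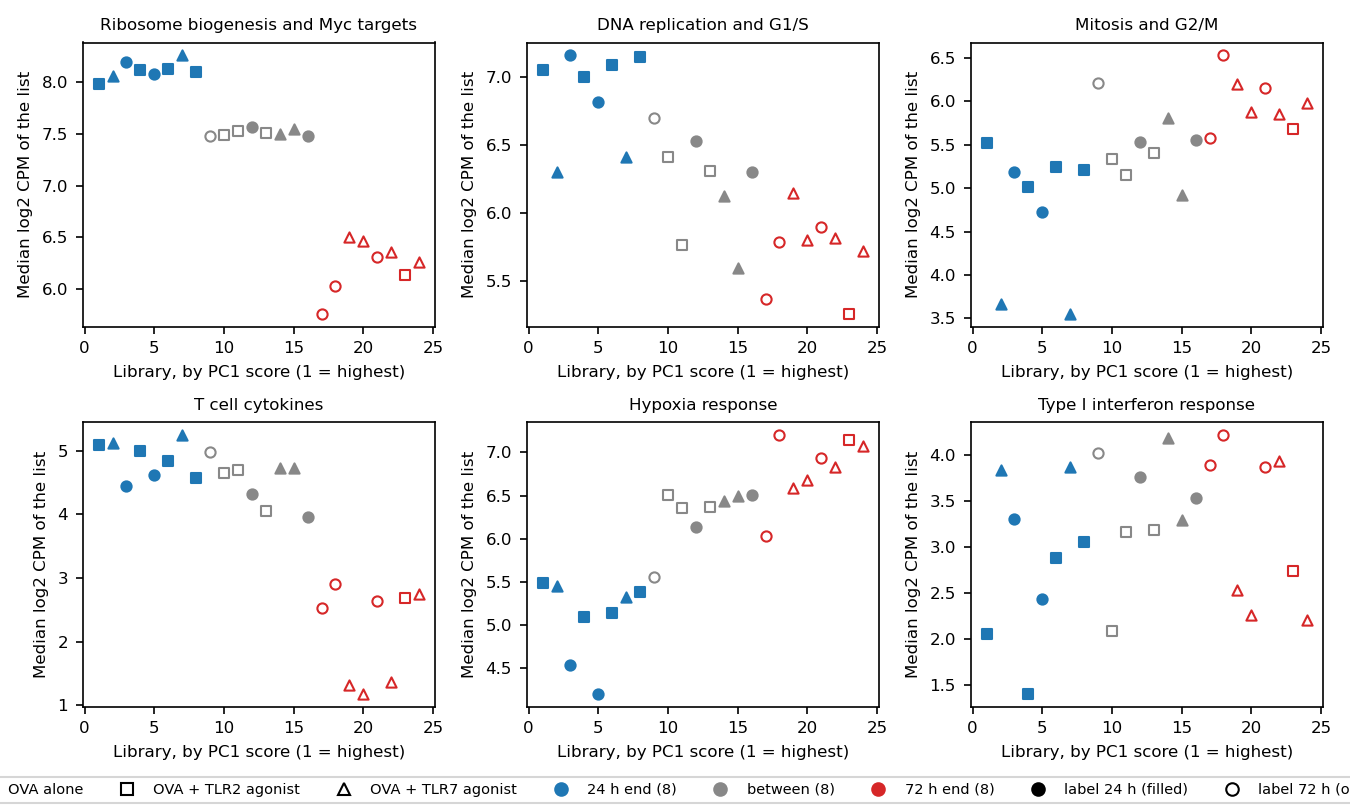
Median log2 CPM of 6 gene lists (vertical) in each of the 24 libraries, ordered by PC1 score from highest to lowest (horizontal), with the agent as marker, the place on PC1 as colour (blue 24 h end, grey between, red 72 h end) and the time label as filled or open. Ribosome biogenesis falls in 3 steps (7.98 to 8.26, 7.48 to 7.57, 5.76 to 6.50), while the 2 TLR7 libraries of the 24 h end are lowest for mitosis at 3.55 and 3.67.

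Of the 16 tested members of the list of D cyclins, their kinases and inhibitors, 8 rose and 4 fell. Cdkn1b, the inhibitor p27, stood at 9.81, 12.2 and 18.5 CPM at the 24 h end and 26.3, 47.8 and 154 CPM at the 72 h end, the highest being OVA 72 h replicate 3 (log2 fold change 1.42, adjusted p = 2.42e-04). Cdkn1a, the inhibitor p21, rose by 1.23, Cdkn2d, the inhibitor p19, by 1.46, and Rbl2, a pocket protein of resting cells, by 1.44. Ccnd2 stood at 994 to 1580 CPM against 215 to 601 CPM and fell by 0.95, whereas Ccnd3, cyclin D3, rose by 0.84.

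Of 22 tested T cell cytokine genes, 12 fell, 3 rose and 7 were not called, with a median log2 fold change of -1.20 (-2.01 between the ends). Il2, encoding interleukin 2, the T cell growth factor (chromosome 3, 37120523 to 37125959), stood at 33.3, 81.9 and 224 CPM at the 24 h end and at 0.083, 0.241 and 0.38 CPM at the 72 h end. In these 8 libraries 3 counts make 0.114 to 0.285 CPM, depending on depth, so Il2 rested on few counts in each. The libraries between stood at 13.2 to 111 CPM, from below the 24 h end to within it. By label Il2 fell by 3.69 on the log2 scale (SE 0.84, adjusted p = 7.11e-04), a value that depends on the prior count, and in an additive model of agent and time it did not pass (adjusted p = 0.0851).

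The chemokine genes Ccl3 and Ccl4, which lie side by side on chromosome 11 and attract leukocytes, showed the same order. Ccl4 stood at 230, 380 and 494 CPM against 1.82, 2.5 and 3.55 CPM (-3.46, adjusted p = 2.49e-04), and Ccl3 at 186 to 471 CPM against 0.743 to 4.59 CPM (-3.48, adjusted p = 2.22e-04). Xcl1, a chemokine for cross-presenting dendritic cells, fell by 3.40 (adjusted p = 1.94e-04). Ifng, encoding interferon-gamma, stood at 58, 346 and 625 CPM against 8.55, 31.5 and 57.6 CPM (-2.25, SE 0.34, adjusted p = 7.62e-05). The highest library of the 72 h end, TLR2 72 h replicate 2, thus nearly met the lowest of the 24 h end, OVA 24 h replicate 4. Cd40lg, the ligand of CD40, fell by 1.52. Tnf, encoding tumour necrosis factor, and Csf2, encoding GM-CSF, did not pass (adjusted p = 0.355 and 0.444), and Tnf stood at 9.19 to 45.3 CPM against 8.28 to 24 CPM. The 3 that rose were Fasl, the death ligand (1.03), Lta, lymphotoxin (0.77), and Tgfb1 (0.27).

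Early genes of T cell receptor signalling fell in part. Of 32 tested, 18 fell and 9 rose (median -0.41). Egr2, a transcription factor induced through the receptor and calcium, stood at 18.6, 27.9 and 52.6 CPM at the 24 h end and 1.52, 2.87 and 5.5 CPM at the 72 h end (-1.89, SE 0.31, adjusted p = 8.12e-05). The ends did not overlap. Nfkbid, an NF-kB regulator, fell by 1.67, Fos by 1.58 and Irf4, whose level follows signal strength, by 0.89, whereas Junb rose by 0.68 and Tnfaip3, an inhibitor of NF-kB, by 0.82. Nr4a1 (Nur77) fell by 0.39 (adjusted p = 0.0179) with overlap of the ends, at 54.7 to 106 CPM against 26.5 to 86 CPM, and the call ended without the 5 libraries under 12000000 counts (adjusted p = 0.112).

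**Figure D3:**
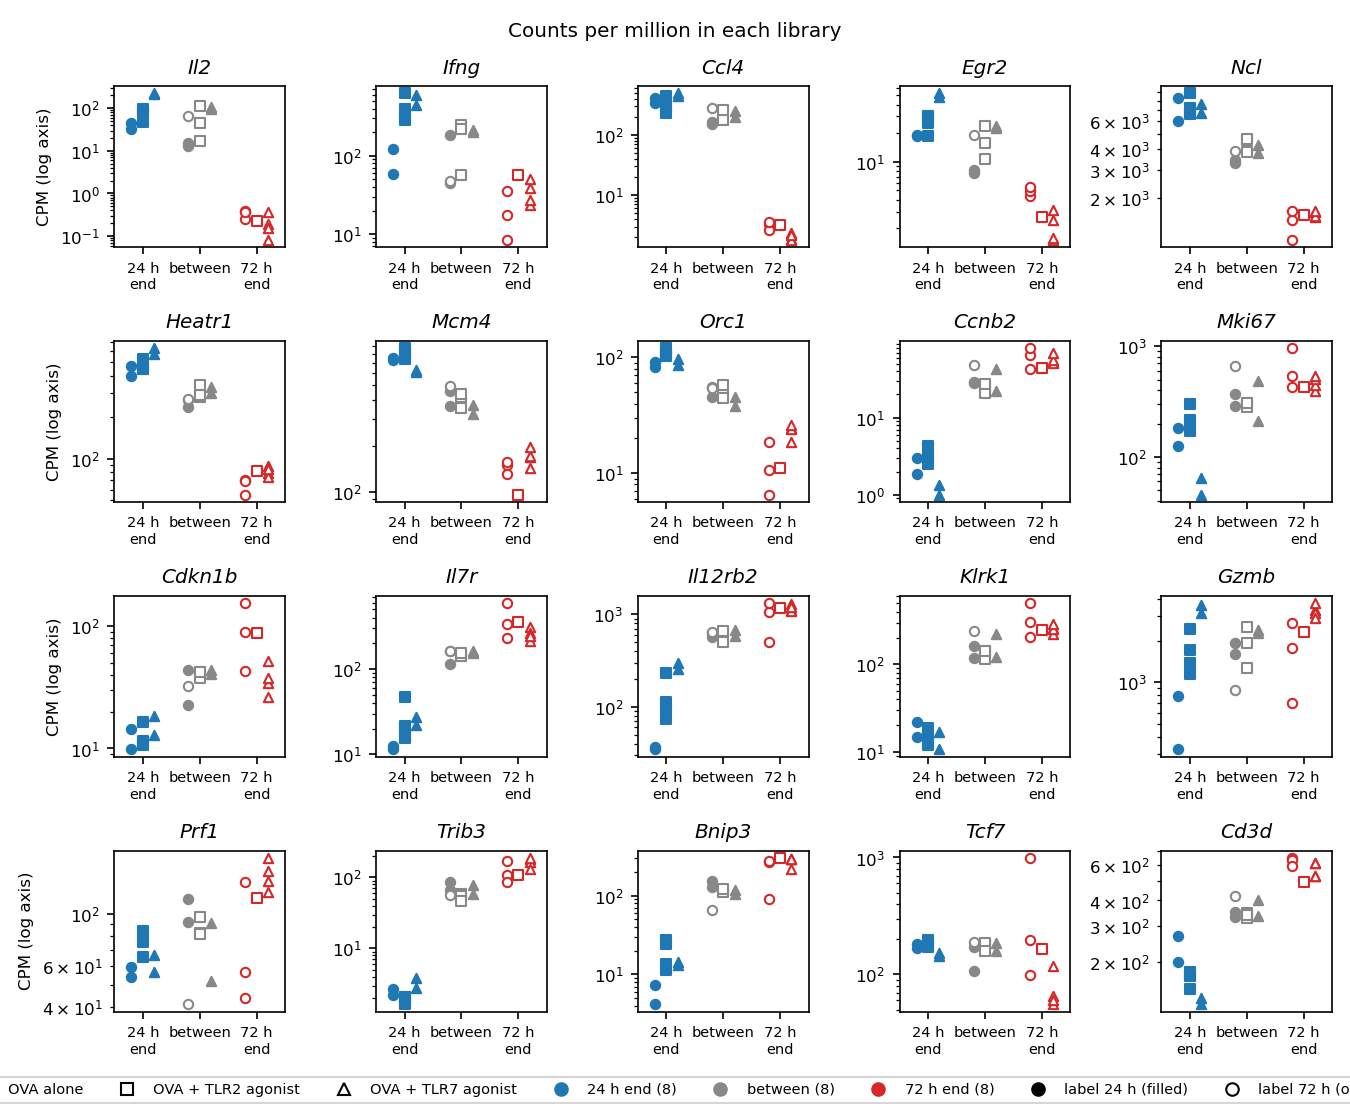
CPM of 20 genes in each library (vertical, log axis) at the 24 h end, between and at the 72 h end, with the agent as marker and the time label as filled (24 h) or open (72 h). Il2, Ccl4, Ncl and Mcm4 are low in all 8 libraries of the 72 h end, Ccnb2, Il7r, Klrk1 and Trib3 are high in all 8, Gzmb overlaps, and Tcf7 reaches 988 CPM in 1 library.

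Of 25 tested receptors for cytokines, 14 rose and 4 fell (median 0.50, and 0.80 between the ends). Without OVA 72 h replicate 3, 15 rose and 7 fell. Il7r, the receptor for the survival cytokine interleukin 7 (chromosome 15, 9505788 to 9530176), stood at 11.4, 18.9 and 46.7 CPM at the 24 h end and 213, 285 and 591 CPM at the 72 h end (2.20, SE 0.43, adjusted p = 2.26e-04). Il12rb2, the signalling chain for interleukin 12, stood at 34.5, 104 and 301 CPM against 501, 1140 and 1320 CPM (1.78, adjusted p = 5.06e-04), and its lowest 72 h value was OVA 72 h replicate 3. Ifngr1, a chain of the interferon-gamma receptor, rose by 2.12 and did not overlap. Il2ra, the high-affinity chain for interleukin 2, did not pass, at 758 to 1520 CPM against 410 to 2200 CPM (0.26, adjusted p = 0.153). Without OVA 72 h replicate 3, its log2 fold change was 0.34 (adjusted p = 0.0236).

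Costimulatory and inhibitory receptors were mixed. Of 17 costimulatory genes tested 8 rose and 4 fell, and of 14 inhibitory ones 5 rose and 2 fell. Over all genes tested 35.3% rose and 32.4% fell. The inhibitory rises were thus at the background, and the falls in both lists were below it. Without OVA 72 h replicate 3, 7 costimulatory genes rose and 5 fell, and the inhibitory counts were the same. Tnfrsf9 (4-1BB), a costimulatory receptor, stood at 349, 393 and 420 CPM against 794, 1880 and 1970 CPM (1.32, adjusted p = 8.36e-05), with no overlap although OVA 72 h replicate 3 lay far below the other 7. Tnfrsf4 (OX40) rose by 1.19 and Tnfrsf18 (GITR) by 1.33, whereas Cd226, an adhesion receptor that costimulates, fell by 1.37. Among inhibitory receptors Tigit stood at 45 to 52.3 CPM against 129 to 212 CPM (1.14, adjusted p = 8.12e-05), Ctla4 rose by 1.11 and Lag3 by 0.80, and Btla fell by 1.20. Pdcd1, encoding PD-1, did not pass (0.09, adjusted p = 0.749), at 28.3 to 108 CPM against 20.9 to 203 CPM, and Havcr2, encoding Tim-3, stood at 0.569 to 3.17 CPM at the 72 h end.

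Most genes of killing were not called. Of 21 tested cytotoxic effector genes 8 rose, 2 fell and 11 were not called, with a median of 0.09. Gzmb, the main granzyme, stood at 324, 1550 and 3630 CPM at the 24 h end and 710, 2820 and 3750 CPM at the 72 h end, with wide overlap (0.28, adjusted p = 0.305). Prf1, perforin, passed narrowly (0.41, adjusted p = 0.0429) at 54 to 84.4 CPM against 43.9 to 172 CPM, and the call ended with OVA 72 h replicate 1 left out (0.20, adjusted p = 0.178), as in most other leave-outs. Ctsw, a protease of cytotoxic cells, rose by 1.61, Unc13d, which primes lytic granules, by 1.12, while Serpinb9, an inhibitor of granzyme B, fell by 1.10. Of 12 tested killer-lectin receptor genes, 4 rose and 3 fell, and without OVA 72 h replicate 3, 4 rose and 5 fell. Over all genes 35.3% rose and 32.4% fell. With all libraries, rises in the cytotoxic and killer-lectin lists were near that background and falls below it. Klrk1, the activating receptor NKG2D, stood at 10.6, 14.8 and 21.9 CPM against 206, 260 and 502 CPM (2.31, SE 0.42, adjusted p = 1.43e-04), and Klrd1 (CD94) rose by 1.93. Klrg1, a marker of terminal effectors, was at most 1.18 CPM in all 16 libraries.

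Transcription factors of effector and memory cells did not share 1 direction. Of 25 tested effector and exhaustion factors 12 rose and 8 fell (median 0.55), the falls at the background share of 32.4%. This median was 0.09 without OVA 72 h replicate 1. Prdm1, encoding Blimp-1, rose by 1.43 and Batf3 by 2.62, whereas Eomes fell by 1.40 and Tbx21, encoding T-bet, by 0.76. Of 25 tested naive and memory genes 13 rose and 5 fell. Lef1 stood at 53.6 to 59.4 CPM against 101 to 381 CPM (1.14, adjusted p = 2.02e-04). Tcf7, encoding TCF-1, stood at 143 to 195 CPM against 55.4, 108 and 988 CPM, and did not pass (0.00, adjusted p = 0.991). The value of 988 CPM was OVA 72 h replicate 3, without which Tcf7 fell by 0.39 (adjusted p = 0.0132). Without that library 10 naive and memory genes rose and 7 fell. Klf2 and S1pr1 rose by 2.47 and 2.15, and without it by 1.37 and 1.33 (adjusted p = 1.49e-04 and 4.83e-04). In the other 7 libraries their 72 h end still lay above the 24 h end, at 7.64 to 16.3 CPM against 1.54 to 5.4 CPM and 29.4 to 61.7 CPM against 6.76 to 13 CPM.

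Homing genes rose in 13 of 26 tested and fell in 4, or in 6 without OVA 72 h replicate 3. Itgb7, the beta 7 integrin of gut homing, stood at 7.34, 12.9 and 16.1 CPM against 181, 314 and 401 CPM (2.31, adjusted p = 3.04e-04). Selplg, the selectin ligand PSGL-1, rose by 1.72 and did not overlap. The inflammatory chemokine receptor gene Cxcr3 did not pass (adjusted p = 0.295), and Ccr7, the lymph node chemokine receptor, fell by 0.33 with overlap (adjusted p = 0.0206). The call of Ccr7 ended in the additive model (adjusted p = 0.0938) and without the 5 libraries under 12000000 counts (adjusted p = 0.156).

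**Figure D4:**
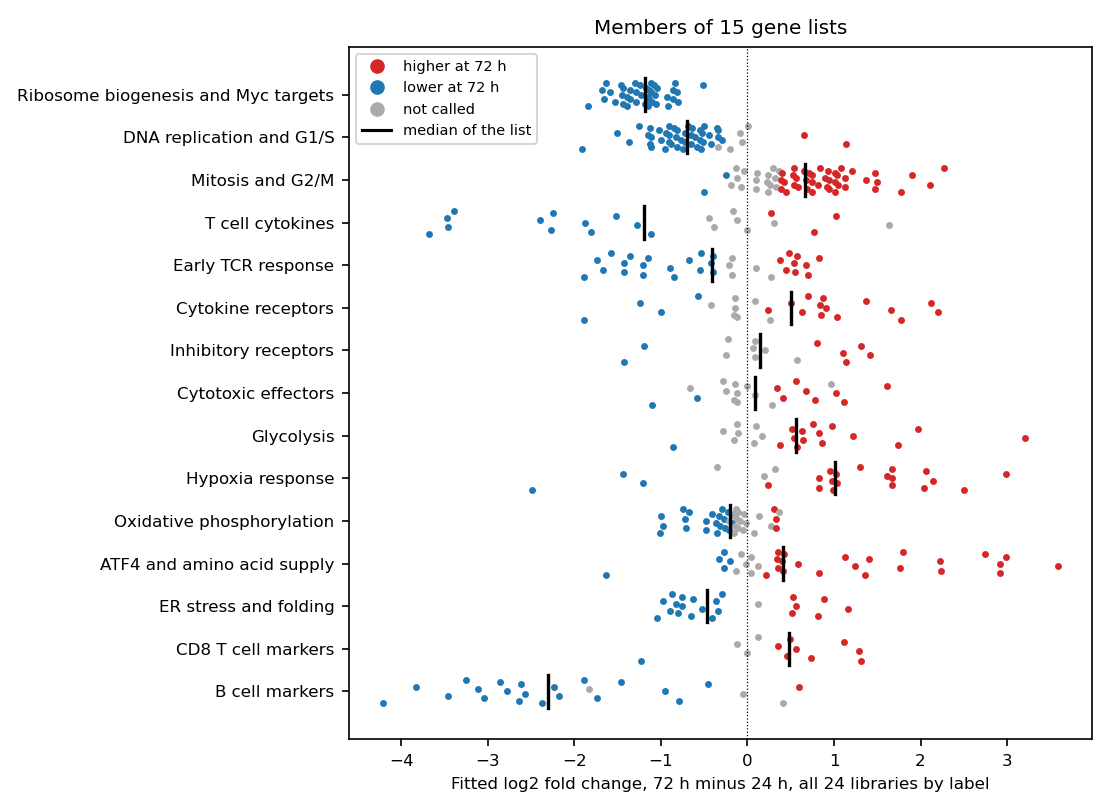
Fitted log2 fold change, 72 h minus 24 h over all 24 libraries by label (horizontal), of each tested member of 15 gene lists (rows), coloured by call, with the list's median as a black bar. All 40 ribosome biogenesis genes lie below 0, and the medians of G1/S (-0.70) and mitosis (0.67) lie on opposite sides.

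Most genes of sugar metabolism and of the hypoxia response rose. Of 22 tested glycolysis genes 14 rose and 1 fell (median 0.56), and of 24 hypoxia genes 18 rose and 3 fell (median 1.01, and 1.64 between the ends). Slc2a3, a glucose transporter, stood at 34.8, 38.3 and 44.4 CPM against 184, 467 and 1080 CPM (1.97, adjusted p = 6.99e-04). The classical Ldha, lactate dehydrogenase, did not pass (-0.11, adjusted p = 0.276), and nor did Hk2, hexokinase 2 (-0.28, adjusted p = 0.0827). Without OVA 72 h replicate 1, Hk2 passed as a fall (-0.38, adjusted p = 0.0221). Bnip3, a mitophagy receptor and target of hypoxia-inducible factor, stood at 4.15, 13.3 and 27.6 CPM against 90, 282 and 300 CPM (2.15, adjusted p = 8.52e-04). P4ha2, whose promoter is shown above, rose by 2.51. Adm, adrenomedullin, also a hypoxia target, fell by 2.49. Genes of oxidative phosphorylation fell slightly, 20 of 40 lower and 3 higher (median -0.20), led by Ndufa4, a respiratory chain protein, at -1.01.

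Amino acid supply genes under ATF4 rose, 22 of 33 against 5 that fell (median 0.41). Trib3, a pseudokinase induced by ATF4 (chromosome 2, 152337422 to 152344032), stood at 1.63, 2.16 and 3.86 CPM against 84.9, 147 and 187 CPM (2.92, SE 0.55, adjusted p = 1.72e-04). Ddit3, encoding the stress factor CHOP, stood at 3.12 to 6.59 CPM against 63.6 to 91.4 CPM (2.23, adjusted p = 9.84e-05), and Asns, asparagine synthetase, at 20.7 to 45.4 CPM against 154 to 337 CPM (1.80, adjusted p = 1.07e-04). Nupr1 rose by 2.92. The libraries between stood at 46.4 to 85.8 CPM for Trib3. Chaperones of the endoplasmic reticulum went the other way: of 22 tested ER stress and folding genes 15 fell and 6 rose (median -0.47), with Dnajb11 at -1.05 and Hyou1 at -0.89 and, among those that rose, Herpud1 at 1.16. Of 31 sterol and fatty acid genes 9 rose and 14 fell, with Scd2, a desaturase, at 2.06 and Idi1, of the mevalonate pathway, at -1.52.

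Large rises by label among genes named by rule were those of Vldlr, a lipoprotein receptor (3.59), and Tgm2, transglutaminase 2 (3.37). Vldlr stood at 0, 0.193 and 0.667 CPM at the 24 h end and 26.1, 38.2 and 65.7 CPM at the 72 h end, and Tgm2 at 1.52, 2.77 and 4.63 CPM against 52.4, 392 and 624 CPM. Of the 12 largest rises, Hspa1a, a heat shock protein, and Ermn overlapped between the ends. Hspa1a did not pass in the additive model (adjusted p = 0.0613). Among genes with a mean of at least 10 CPM at either time, Ms4a1 (CD20) fell by 4.22, Pax5 by 3.83 and Mpeg1 by 3.69, which mark B cells and macrophages.

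The labelled cell type was checked against its markers. The summed CPM of 12 CD8 T cell markers was 3020 to 4770 at the 24 h end and 4970 to 5980 at the 72 h end, and 8 of the 12 rose and 1 fell. Cd8a stood at 457 to 903 CPM against 501 to 758 CPM (not called, adjusted p = 0.209), and Cd4 at no more than 2 CPM in any of the 16 libraries. Cd3d stood at 124, 171 and 269 CPM against 494, 601 and 645 CPM (1.12, adjusted p = 7.58e-05), Cd3g rose by 1.31 and Cd8b1 by 0.73. Cd5, a negative regulator of the receptor, stood at 348 to 549 CPM against 98.7 to 153 CPM and fell by 1.23 (adjusted p = 7.62e-05), and Cd6 fell by 1.14.

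Markers of other cells were present at both ends, some lower and some higher at 72 h. The summed CPM of 24 B cell markers was 626, 1120 and 1960 at the 24 h end, 564 to 960 between and 204, 364 and 1120 at the 72 h end, the highest of which was OVA 72 h replicate 3. Of the 24 genes 20 fell and 1 rose (median -2.31). At the 72 h end 14 of the 24 had a median under 1 CPM. The sum of 18 macrophage and monocyte markers was 80.9 to 177 CPM against 50.4 to 224 CPM, and 6 of 11 tested fell and 1 rose. Their median log2 fold change was -0.95, and -2.44 without OVA 72 h replicate 3. The sum of 16 dendritic cell markers was 119 to 204 CPM at the 24 h end and 167 to 365 CPM at the 72 h end, with overlap. Of 12 tested 7 fell and 3 rose, the 3 being Ly75, Cacnb3 and Batf3. NK cell markers fell in 4 of 9 tested (6 without OVA 72 h replicate 3) and rose in 0, while their sum was 48.8 to 113 CPM at the 24 h end and 74.8 to 166 CPM at the 72 h end. The median sum was higher at the 72 h end than at the 24 h end for CD4 and regulatory T cell markers (1750 and 1040 CPM), mast cell markers (33.8 and 11.6 CPM) and stromal markers (31.1 and 13 CPM). Of 7 tested CD4 and regulatory genes, however, 2 rose and 3 fell, with a median log2 fold change of -0.50. Their sum and their median thus went in opposite directions. The sum ran from 782 to 1560 CPM at the 24 h end and from 443 to 2290 CPM at the 72 h end. Il2ra, a member of this list that was not called, had nearly these ranges by itself, as given above. The sum thus mostly describes that gene. Of 7 tested mast cell genes 1 rose and 2 fell, and of 4 stromal genes 3 rose and 1 fell. The median sum was lower at the 72 h end for plasma cell (648 and 968 CPM), neutrophil (10.2 and 13 CPM) and erythroid markers (4.56 and 9.25 CPM). The neutrophil sums overlapped (5.28 to 49.1 and 5.78 to 154 CPM), as did the erythroid sums (3.3 to 41 and 7.51 to 23.2 CPM). Of 8 tested neutrophil genes 4 fell and 1 rose, and of 6 erythroid genes 1 fell and 1 rose. Of 9 plasma cell genes 5 fell and 3 rose. The plasma cell list includes Irf4 and Prdm1, given above among T cell genes. Platelet markers rose in 5 of 5 tested, out of 10, led by Itgb3, an integrin chain also made by activated T cells (1.94). Without the 5 libraries under 12000000 counts 4 rose. Of the 10, 8 had a median under 1 CPM at the 24 h end and 6 at the 72 h end. In bulk samples fewer cells of a type and less RNA per cell cannot be told apart. The part of these markers in the falls of Cxcl10, Ciita, Irf8 and the cytokine genes was not tested.

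The count for type I interferon response genes depended on the shallow libraries. Of 38 tested type I genes 10 rose and 11 fell (median -0.06, and 0.10 between the ends), which is below the background share in each direction. Without the 5 libraries under 12000000 counts 5 rose and 16 fell (median -0.30), a share of falls above the background. In that setting 8054 of all 14949 genes tested were called, 4144 of them higher. Within the 24 h end their genes had a median SD of 0.966 on the log2 scale, against 0.32 for all genes. The list's median log2 CPM at the 24 h end was 3.83 and 3.87 in the TLR7 libraries, 2.43 and 3.30 in the OVA libraries and 1.40 to 3.05 in the TLR2 libraries. At the 72 h end it was 3.86 to 4.21 in the OVA libraries and 2.20 to 3.93 in the TLR7 libraries. The median time difference of the list by label was 0.58 with OVA, 0.22 with TLR2 and -1.17 with TLR7. Of 31 interferon-gamma response genes 13 rose and 14 fell. Those that rose included H2-D1 (0.87) and Tap2 (1.01), of antigen presentation, and those that fell included Cxcl9 (-4.02) and Cxcl10 (-3.62), chemokines that also come from myeloid cells.

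**Figure D5:**
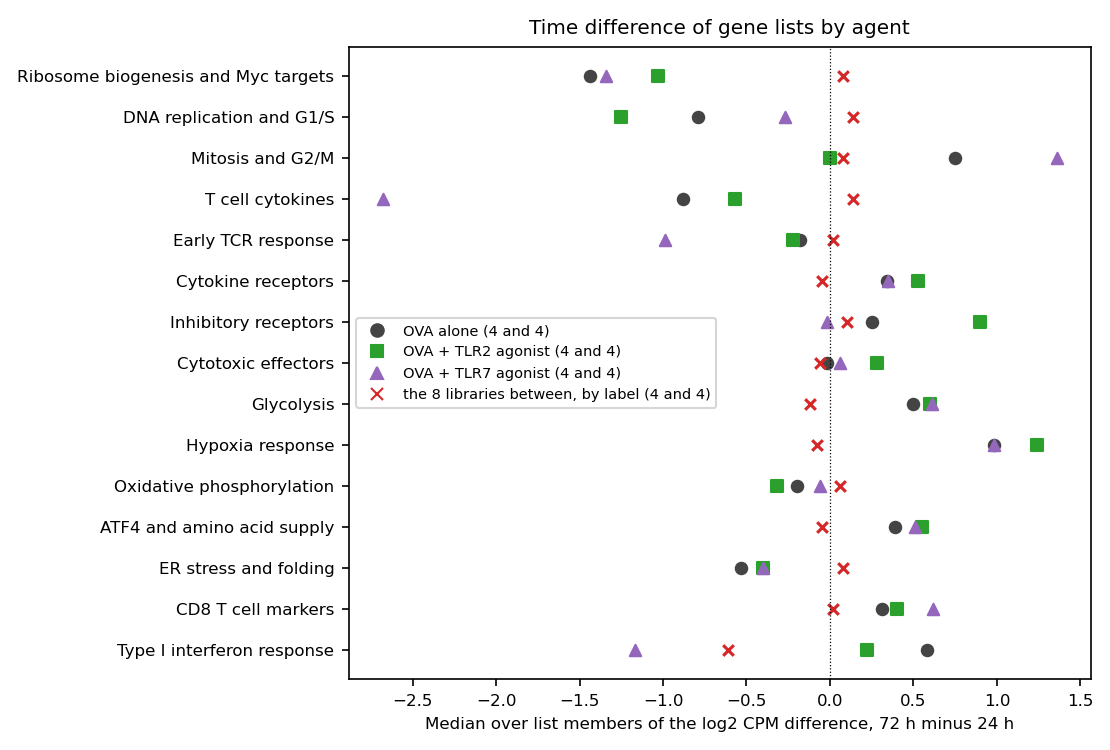
Median over the members of 15 gene lists of the log2 CPM difference, 72 h minus 24 h (horizontal), with OVA alone, with the TLR2 agonist and with the TLR7 agonist (4 and 4 libraries each), and among the 8 libraries between (crosses, 4 and 4 by label). Ribosome biogenesis lies at -1.44, -1.03 and -1.34 in the agents, the type I interferon list at 0.58, 0.22 and -1.17, and most crosses lie near 0.

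A difference of the time change between agents was called in 66 genes, 0.453% of those tested, while 2351 had an unadjusted p under 0.05. Without any 1 of 6 libraries (OVA 24 h replicate 3, OVA 72 h replicate 2, TLR7 24 h replicates 1 and 2, TLR7 72 h replicates 2 and 4) this count was 0, and without OVA 72 h replicate 1 it was 515. Among the 6 genes with the smallest p, Cflar, an inhibitor of death receptor signalling, stood at 251 and 302 CPM in the TLR7 libraries of the 24 h end and at 95.1 to 148 CPM in the other 6, and at 70.4 to 106 CPM in TLR7 at the 72 h end (adjusted p = 0.0295). Aff3, a nuclear factor, changed by 1.05 with OVA, -0.04 with TLR2 and -1.05 with TLR7 (adjusted p = 0.0295). Tnfsf8, encoding the CD30 ligand, changed by -0.21, -0.11 and -3.30 in the same order. Egr1, an early response factor, changed by 0.65, 0.48 and -0.82, and Fbxo5, an inhibitor of the anaphase-promoting complex, by 0.18, -1.19 and 1.29. In the TLR2 72 h group 3 libraries lay between the ends, and in the TLR7 72 h group 0 did. Agent and place on PC1 thus cannot be told apart in these differences by label. Within the ends alone, where TLR2 has 1 library at 72 h, Aff3 changed by 1.06, -0.01 and -1.07 and Tnfsf8 by -0.79, -0.50 and -3.63. There Egr1 changed by 0.80, 0.65 and -0.79, and Fbxo5 by 0.02, -1.33 and 1.57. No test was made within the ends. The 3 agents shared 1 sign for 9220 of the 9855 genes called in time. These genes were called by the mean over the 3 agents, which by itself favours a shared sign.

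The libraries between were chosen by PC1 as well, so small differences among them follow from their narrow range on it. Label and agent are also mixed there: the 24 h label holds 2 OVA and 2 TLR7 libraries, and the 72 h label 1 OVA and 3 TLR2 libraries, so time and agent cannot be told apart. The median absolute log2 difference of the 9855 called genes was 1.13 between the ends and 0.101 between the libraries labelled 72 h and 24 h in the middle. For ribosome biogenesis the middle difference was 0.08, for mitosis 0.08, for T cell cytokines 0.14 and for hypoxia -0.08. The differences farthest from 0 were those of the neutrophil list (0.99), the type I interferon list (-0.61) and the mast cell list (0.45). In 9518 of the 9855 called genes the median of the libraries between lay between the medians of the 2 ends, as their place on PC1 implies. Over all 24 libraries, 23 genes were at least 2-fold apart with no overlap of the 12 and 12, 16 of them lower and 7 higher at 72 h, against 4305 genes among the 16. They were named after their values were seen. Alpl, alkaline phosphatase, stood at 6.33 to 20.3 CPM in the 12 libraries at 24 h and at 0.0448 to 5.93 CPM in the 12 at 72 h. Klrc2 (NKG2C), whose reads may be shared with near-identical lectin genes, stood at 0.395 to 2.2 CPM against 2.42 to 6.61 CPM. Most of the 23 were predicted genes or pseudogenes, whose expected counts depend on how reads shared with other copies were divided.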

How the data were processed

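Poly-A RNA was sequenced from 24 libraries with a stranded kit, per the labels' protocols. The files deposited by the authors hold unscaled expected counts of genes for 1 library each. STAR, RSEM, edgeR and GRCm38 are named, per the submitters' processing notes. Their versions, the annotation and the counting's strand setting were not given, so overlapping and antisense genes are uncertain. In the files 28.7% of values above 0 are not whole. In all 24 libraries the deposited file's name carries another replicate number (3 to 6) than the sample's title (1 to 4), and the titles' numbers are used. Counts were rounded. CPM used TMM-scaled library sizes, and log2 CPM a prior count of 2.

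Of 48526 genes, filterByExpr (minimum count 10, minimum total 15) kept 14560. Time was tested with edgeR's (version 4.0.16) quasi-likelihood F test in R 4.3.3 on all 24 libraries, with a term per group, as the mean over agents of 72 h minus 24 h. The difference between agents was a second test on the same fit. Benjamini-Hochberg adjustment ran over all genes tested, with a threshold of 0.05. The residual degrees of freedom were 18 and the common biological coefficient of variation 0.321. DESeq2 1.42.0 was an alternative. The script was tested on simulated data.

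Differences of 8 against 8 are differences of mean log2 CPM. Floors and limits of detection cover counting error only. Coordinates are from GENCODE M21 (GRCm38), and promoters from RefSeq. Same-numbered libraries were not treated as pairs in the main fit. Of 60 same-numbered pairs, 21 had a correlation of deviations from the group means over 0.1 (range -0.616 to 0.525). Of the 24 libraries, 10 correlated best with those of their own number. Several groups hold libraries both at an end and between, which shapes these deviations, so this check cannot exclude pairing.

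The libraries, the 36 lists (806 of 809 symbols in the files, 748 tested) and the naming rule were chosen with earlier results of these data known. The rule named a fixed list of key genes, the 12 rises and 12 falls with the largest log2 fold change among called genes with a mean of at least 10 CPM at either time (predicted genes and receptor segments left out), up to 4 called members per list with the largest change, and 6 genes of the test between agents. Tk1, E2f2, Lta, Tgfb1, Junb, Tnfaip3, Igha, Lyz2, Ly75, Cacnb3, Irf8, H2-D1 and Tap2 fall outside it and were chosen after their values were seen. Some genes that the rule names are not reported here. Alternatives were RLE scaling, library size only, no filter, a stricter filter, DESeq2, a replicate block, an additive model and leaving out each library. Leaving out the 5 libraries under 12000000 counts was chosen after seeing the data.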

Additional observations from a re-analysis of the deposited data

Results flagged for a closer look

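Among 87 genes, a library was flagged where it stood apart from the other 7 of its end on the log2 scale by Dixon's criterion at 95%. This was so in 29 of 174 cases. The criterion is set to flag about 1 in 20 for independent samples of 1 normal population. Here each end mixes 3 agents and all genes share the same libraries, so that rate is not a yardstick for this count. OVA 72 h replicate 3 accounted for 18 and OVA 72 h replicate 2 for 6.

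OVA 72 h replicate 3 was highest at the 72 h end for Tcf7 (988 CPM), S1pr1 (564 CPM), Klf2 (343 CPM), Mpeg1 (15 CPM), Cybb (8.19 CPM), Pou2af1 (8.01 CPM), Ms4a1 (2.27 CPM) and Klrg1 (1.18 CPM). It was lowest for Npm1 (1580 CPM), Ldha (1530 CPM), Ncl (1110 CPM), Tnfrsf9 (794 CPM), Gzmb (710 CPM), Il12rb2 (501 CPM), Slc7a5 (265 CPM), Ccnd2 (215 CPM), Asns (154 CPM) and Arhgef25 (10.3 CPM). Genes of resting T cells and of B cells and macrophages were thus high in the same library in which several growth genes were low. The summed CPM of macrophage and monocyte markers in it was 224, and its B cell sum was 1120. Whether these values share a source was not tested.

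OVA 72 h replicate 2 was highest for Top2a (1110 CPM), Mki67 (961 CPM) and Klrk1 (502 CPM), and lowest for Id2 (24.4 CPM), Gzma (2.07 CPM) and Ccr2 (0.549 CPM). OVA 72 h replicate 1 was highest for Ddit3 (91.4 CPM).

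At the 24 h end the flagged libraries were each lowest for 1 gene: TLR7 24 h replicate 2 for Ccnd3 (34.5 CPM), TLR2 24 h replicate 4 for Eomes (10.6 CPM), TLR7 24 h replicate 1 for Csf2 (0.439 CPM) and OVA 24 h replicate 4 for Sv2c (0.0883 CPM). With the label groups of 4 in place of the ends, 44 of 522 cases were flagged, 21 of them in TLR2 72 h replicate 2, the library of its group that lay at the 72 h end.

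The change with time differed between agents, by edgeR's test of that difference, for Cxcl10 (adjusted p = 0.0393), Iigp1 (adjusted p = 0.0356), and for Aff3, Egr1, Cflar, Tnfsf8, 1700065D16Rik and Fbxo5 (adjusted p = 0.0295 each). Cxcl10 changed by -2.88 with OVA, -2.10 with TLR2 and -6.11 with TLR7, and Iigp1, an interferon-induced GTPase, by -0.53, -1.59 and -3.73. 1700065D16Rik changed by -0.97, -1.09 and -3.76, at 0 to 2.15 CPM in the 16 libraries. Agent and place on PC1 are mixed in all these changes.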

How the results depend on the processing

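The count of genes called in time stayed within 1.5 times of 9855 in every alternative run, from 8054 without the 5 libraries under 12000000 counts to 10593 with DESeq2, and from 9367 to 10111 with each library left out. The count for time by agent was 66, and it was 23 with the replicate number as a block, 569 with DESeq2, 0 without the 5 shallow libraries and 0 to 515 with each library left out. The replicate block left 10015 genes called in time. Genes at least 2-fold apart with no overlap numbered 4305 between 8 and 8, 4298 to 4648 with each of the 16 left out, and 23 for 12 against 12 by label, as that comparison adds the 8 libraries between. With library size only as scaling, 55.8% of called genes were higher, against 52.2%. No gene named by the rule changed sign with a call under an alternative fit. The neutrophil list's median of -2.25 turned to 1.67 under the stricter filter, which left 1 gene of it. Of 206 genes named by rule and tested, 20 lost their call without the 5 shallow libraries, 15 in the additive model and 7 with the replicate block. Without the shallow libraries, rises numbered 5 of 32 early T cell receptor genes (9 with them) and 1 of 23 cytokine genes (3 of 22), and falls 13 of 40 oxidative phosphorylation genes (20). Calls were fewer over all genes as well, 8054 of 14949 with 4144 higher, against 9855 of 14560 with 5140 higher. A loss of calls is thus not particular to these lists. The shallow libraries are all at the ends, so in these counts their depth and the loss of end libraries were not told apart. Among the 11 of the 16 over 12000000 counts, 4734 genes were at least 2-fold apart with no overlap between the ends, against 4305. Fewer libraries make no overlap easier to reach.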
